A study of Mus musculus with 40 samples.

Results

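Naive mouse embryonic stem (mES) cells lacking the lamins and the lamin B receptor LBR (QKO) were compared with naive mES cells lacking LBR alone (LBRKO), so that the comparison asks what lamin loss adds where LBR is already missing. Its members are 8 of the 40 libraries of the series, 4 labelled QKO and 4 labelled LBRKO, chosen by genotype and culture stage. Of 56748 annotated genes, 23399 had enough counts to be tested, as had 1142 of 1243 families of transposable elements (TEs), the repeated mobile sequences of the genome. The series measured total RNA, depleted of ribosomal RNA, in WT, LBRKO, TKO and QKO cells at the naive stage and as epiblast-like cells. The naive WT and TKO libraries serve here only as references, and epiblast-like cells are not described.

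All compared cells were XY mES cells grown without serum or feeder cells in LIF with 3 µM CHIR-99021, a GSK3 inhibitor, and 1 µM PD0325901, a MEK inhibitor, and harvested at 48 h. LBRKO cells came from WT cells by Cas9 cutting of *Lbr* in exon 2, which leaves frameshift indels. Several such clones were made, and the labels do not tie a library to a clone. QKO cells were 1 surviving clone made by the same cut in TKO cells, a line with disrupted *Lmna*, *Lmnb1* and *Lmnb2*. The authors report a frameshift deletion and an in-frame deletion of *Lbr* in that clone. TKO cells were derived elsewhere together with the littermate WT line. Lamin status, parental line, clone and *Lbr* alleles therefore change together between LBRKO and QKO and cannot be told apart. Each library was 1 culture well, so p-values and standard errors rest on wells, not on clones. The spread was estimated over all 40 libraries with WT as 1 group at each stage. It therefore also holds differences between sets of WT libraries, described below, and is not the spread between wells alone.

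The lamins are intermediate filament proteins that form a meshwork under the inner nuclear membrane, and LBR is a membrane protein of that site. Both tether compact chromatin, in large part marked by H3K9 methylation, to the nuclear edge, and LBR is a main tether in cells with little lamin A. LBR also carries a sterol reductase domain that acts in cholesterol synthesis, a step that the enzyme TM7SF2 can perform as well.

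The cut made in both groups lies in exon 2 of *Lbr*, which spans chr1:181665943-181666121 on GRCm39 with the gene on the minus strand. The exon holds a single Cas9 site with an NGG motif whose cut falls within a SacI recognition sequence, at chr1:181666037-181666059 on the plus strand, motif included. The site is shown because the cells of every library compared here were cut there, though the resulting alleles differ. Capitals mark the 20 bases of the target, and the motif agg follows them.
Lbr exon 2 target: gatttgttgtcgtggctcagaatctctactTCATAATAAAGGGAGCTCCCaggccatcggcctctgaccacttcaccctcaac
Counted from the 5′ end of the target, the SacI sequence covers bases 13 to 18, and Cas9 cuts after base 17.

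Counts assigned to genes numbered 39734858 to 47960459 per LBRKO library and 24491961 to 30630608 per QKO library. WT libraries fell into sets of unlike depth in the same way, with 27696460 to 33062951 in replicates 1 to 4 and 39434595 to 46631348 in replicates 5 to 8. The labels name no batch for these sets. The difference between the WT sets, replicates 1 to 4 minus 5 to 8 and called the WT split below, was used as a yardstick, since it runs from shallow to deep libraries as QKO minus LBRKO does. A call was described as beyond the WT split when it also passed with the split subtracted and with it added. No QKO libraries and no LBRKO libraries were alike enough to be the same library. LBRKO replicates 1 and 2 differed from 3 and 4 in several genes named below, and LBRKO replicate 3 stood high in immediate early genes.

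The targeted genes followed the labels. *Lmnb1*, which encodes lamin B1 (chr18:56840885-56886496), stood at 538, 538, 544 and 499 CPM in the LBRKO libraries and at 15.5, 11.95, 14.3 and 13.6 CPM in the QKO libraries, where CPM are counts in every 1000000 of the scaled library. *Lmnb2*, lamin B2 (chr10:80737037-80754079), stood at 120.1, 111, 115 and 94.5 CPM in LBRKO and at 2.11, 2.15, 3.77 and 2.30 CPM in QKO. *Lmna*, which encodes lamins A and C (chr3:88387454-88417263), stood at 76.7, 78.5, 82.2 and 79.9 CPM in LBRKO and at 19.9, 20.96, 17.1 and 18.3 CPM in QKO. No QKO library reached the lowest LBRKO library for any of the 3 genes. On the log2 scale the differences were -5.26 ± 0.08 for *Lmnb1* (SE, 4 against 4 libraries, edgeR adjusted p = 9.3e-38), -5.43 ± 0.14 for *Lmnb2* (adjusted p = 3.5e-30) and -2.06 ± 0.11 for *Lmna* (adjusted p = 5.8e-19). QKO thus kept 2.61% of the LBRKO level of *Lmnb1*, 2.34% of *Lmnb2* and 24.0% of *Lmna*. In TKO the levels were 8.47 ± 0.261, 4.30 ± 0.352 and 15.9 ± 1.37 CPM (mean ± SD, n = 4).

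*Lbr* RNA itself (chr1:181642900-181670611) was present in both groups, at 274, 253, 145 and 162 CPM in LBRKO and 238, 237, 236 and 239 CPM in QKO. The QKO libraries lay within the LBRKO range, in which replicates 1 and 2 were above replicates 3 and 4. The difference was 0.19 ± 0.15 (adjusted p = 0.35), while WT held 347 to 407 CPM and TKO 333 to 373 CPM. Indels in exon 2 need not lower the RNA, so this level does not check the loss of the protein.

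*Dab2*, an endocytic adaptor of primitive endoderm (chr15:6329269-6470193), was at 4.24, 5.403, 7.47 and 6.61 CPM in LBRKO and at 0.292, 0.230, 0.196 and 0.343 CPM in QKO. *Col4a1*, a chain of basement membrane collagen IV (chr8:11248423-11362826), was at 19.6, 18.7, 14.5 and 15.8 CPM in LBRKO and at 2.73, 3.18, 2.63 and 2.30 CPM in QKO. All 4 QKO libraries lay below all LBRKO libraries for both genes. *Dab2* fell by 4.45 ± 0.29 on the log2 scale (adjusted p = 1.1e-16) and *Col4a1* fell by 2.66 ± 0.14 (adjusted p = 4.7e-19). WT held 1.26 ± 0.223 CPM of *Dab2* and 7.67 ± 1.15 CPM of *Col4a1* (n = 8), so that LBRKO lay above WT and QKO below it.

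**Figure D1:**
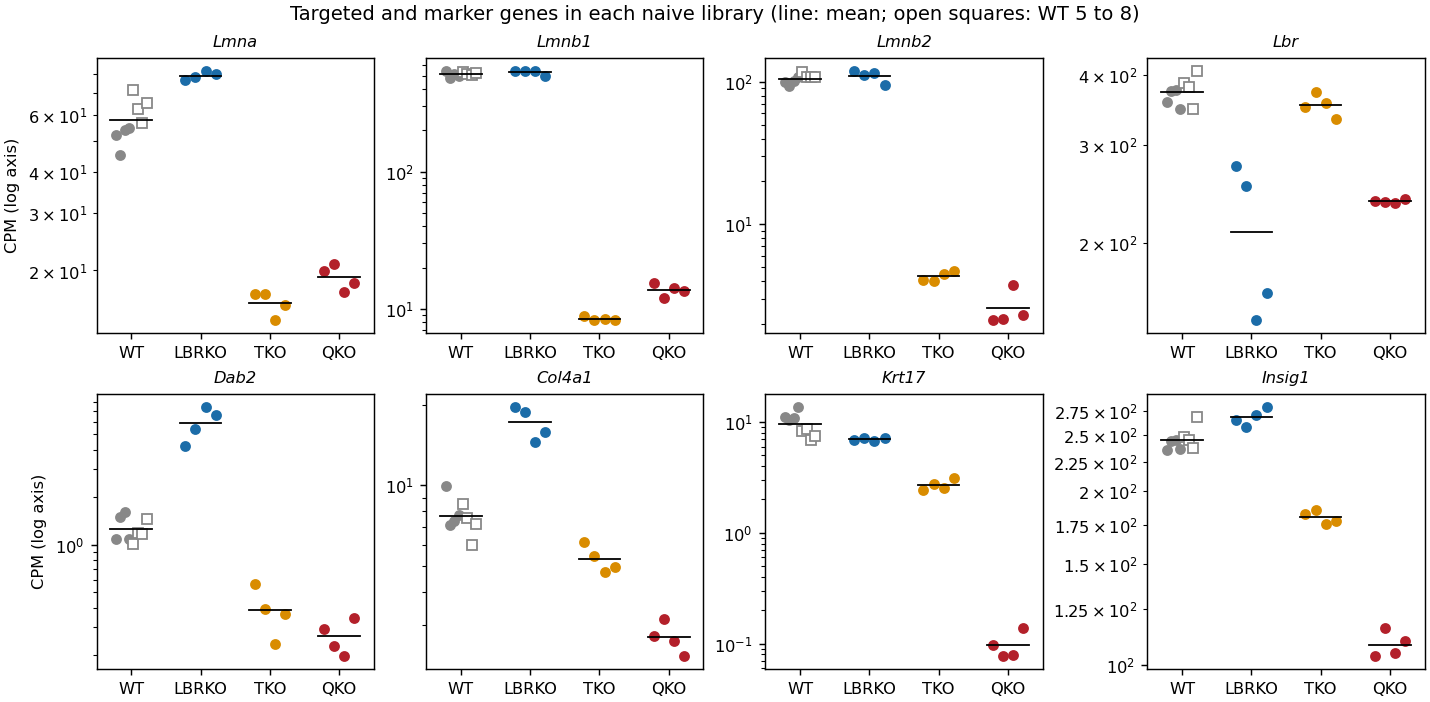
Level of 8 genes in each naive library (vertical axis, CPM on a log scale) for WT, LBRKO, TKO and QKO, with each point a library, open squares for WT replicates 5 to 8 and a line for the mean of each group. Lmnb1, Dab2 and Col4a1 lie lower in all 4 QKO libraries than in any LBRKO library.

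Across the genes tested, 2274 were higher and 1939 lower in QKO by more than 2-fold at an adjusted p under 0.05, which is 9.72% and 8.29% of 23399. Libraries of the groups did not overlap for 10020 genes (42.8%). The same rule called 436 genes higher and 504 lower between the WT sets, 1.86% and 2.15%. Beyond the WT split, 869 genes were higher (3.71% of all tested) and 1046 lower (4.47%), which is 38.2% of the higher and 53.9% of the lower calls. The shares of 9.72% higher and 8.29% lower are the background for the counts of list members given below, and a count near them is not a result about the list. Among protein-coding genes, a nearer background for lists of such genes, 6.84% were higher and 10.8% lower. The median difference over all genes was 0.02 on the log2 scale. Protein-coding genes were more often lower than higher, with 1668 against 1058 of 15477. Long noncoding RNAs leaned the other way, with 563 higher and 159 lower of 3253, and so did pseudogenes, with 431 higher and 46 lower of 2898. Among pseudogenes the median difference was 0.54, but the WT split had a median of 0.43 there.

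**Figure D2:**
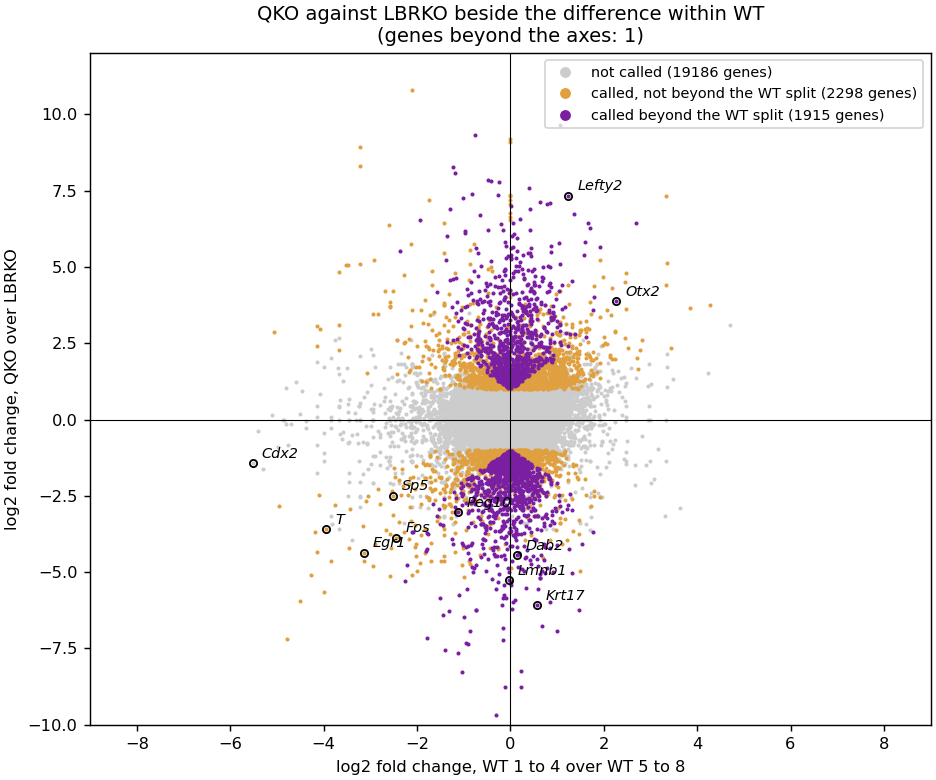
Difference of each tested gene between QKO and LBRKO (vertical axis, log2) against its difference between WT replicates 1 to 4 and WT replicates 5 to 8 (horizontal axis, log2), with called genes beyond the WT split and other called genes in colours of their own. The 869 higher and 1046 lower genes beyond the WT split are told apart from other calls such as T, Sp5 and Egr1, whose WT differences are as negative as -3.95, -2.51 and -3.14. 1 gene lies outside the axes.

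Genes on chromosome 6 were set apart, because their level in LBRKO was raised as a group. Among the 719 genes of chromosome 6 that reached 1 CPM, the median difference between QKO and LBRKO was -0.53, while the medians of 19 other chromosomes lay between -0.11 and 0.04. Against WT, the chromosome 6 median was 0.37 in LBRKO, -0.16 in TKO and -0.19 in QKO, and the WT split was -0.01. Chromosome 6 took 6.61 ± 0.0416% of gene counts in LBRKO (SD, n = 4), 4.62 ± 0.0136% in QKO, 4.75 ± 0.0139% in TKO and 5.25 ± 0.0447% in WT (n = 8). Of its 1167 genes tested, 69 were higher and 189 lower, and the 16.2% that were lower compare with 5.34 to 10.6% on the others. With the chromosome median subtracted from each gene for the 2-fold cut, 94 were higher and 95 lower. The adjusted p stayed that of the unshifted difference. The karyotypes given for the parental lines include WT cells with trisomy 6, and copy number and other regulation cannot be told apart for a gene of this chromosome. They also give trisomy 8 for TKO cells, the parent of QKO, and for some WT cells, so chromosome 8 was left out of the genes ranked below. Its median difference was -0.06, and of the genes named below *Col4a1*, *Col4a2*, *Bst2*, *Nkd1* and *Zfp42* lie on it.

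The 8 genes of the Y chromosome that reached 1 CPM had a median difference of 1.46. *Kdm5d*, a histone H3K4 demethylase, was at 0.256, 0.299, 0.255 and 0.225 CPM in LBRKO and 18.7, 19.3, 17.8 and 21.3 CPM in QKO, and *Zfy1*, a zinc finger transcription factor, at 0.149, 0.207, 0.0637 and 0.125 CPM and 10.6, 12.1, 13.2 and 12.7 CPM. Both were higher in each QKO library, by 6.20 ± 0.28 and 6.45 ± 0.29 on the log2 scale, and WT held only 0.449 ± 0.169 and 1.09 ± 0.231 CPM. *Ddx3y*, an RNA helicase, rose by 1.28 ± 0.08, or stood at -0.18 with the Y chromosome median subtracted, while *Eif2s3y*, a translation initiation factor subunit, and *Uty*, a demethylase of the UTX family, differed by 0.51 and 0.46 and missed the 2-fold threshold. In all, 4 of 7 listed Y-linked genes rose and all 4 did so beyond the WT split. Populations that had lost the Y chromosome are described for both parental lines, and the part of such loss in these values was not tested.

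**Figure D3:**
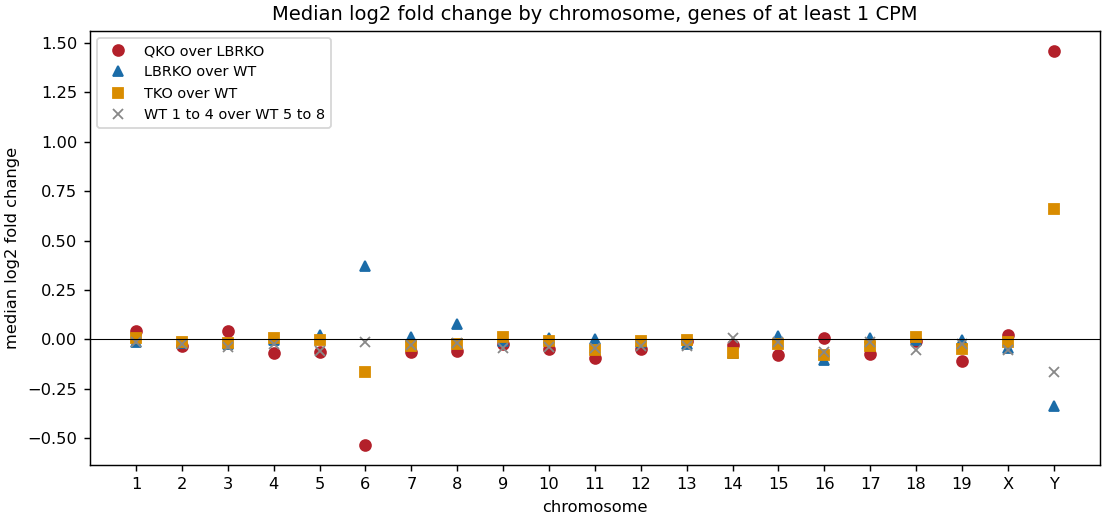
Median difference over genes of at least 1 CPM on each chromosome (vertical axis, log2) for QKO minus LBRKO, LBRKO minus WT, TKO minus WT and WT replicates 1 to 4 minus 5 to 8, with 1 point per comparison and chromosome (horizontal axis). Chromosome 6 stands at -0.53 for QKO minus LBRKO and at 0.37 for LBRKO minus WT, and chromosome Y at 1.46 for QKO minus LBRKO.

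Genes were ranked among those that were called beyond the WT split, had no overlap between the groups, averaged at least 5 CPM in whichever group was higher and carried a gene symbol. The 10 with the highest rise off chromosomes 6, 8 and Y were led by *Stk33*, a serine/threonine kinase gene, with 7 reads over the 4 LBRKO libraries and 8.45, 6.86, 7.07 and 6.76 CPM in QKO (7.40 ± 0.75, adjusted p = 3.6e-11). *Lefty2*, a secreted inhibitor of Nodal, was at 0.128, 0.115, 0.191 and 0.150 CPM in LBRKO and 26.0, 20.6, 24.9 and 25.5 CPM in QKO (7.34 ± 0.37, adjusted p = 3.4e-20). *Lefty1* is its neighbour and near-identical copy, and reads that fit both genes were not counted. *Lefty1* was at 0.0639, 0.0920, 0.0849 and 0.0250 CPM in LBRKO and 5.78, 6.86, 6.13 and 5.66 CPM in QKO (6.42 ± 0.72). The *Lefty* genes were also high without any knockout: WT replicates 1 to 4 held 31.7 ± 3.95 CPM of *Lefty2* and replicates 5 to 8 held 13.4 ± 1.98 CPM, so the low group was LBRKO. For *Lefty1* the WT sets held 31.2 ± 4.43 and 9.90 ± 1.42 CPM and TKO held 18.4 ± 1.75 CPM. QKO was thus below WT and TKO in *Lefty1* as well, though far above LBRKO. *Stk33*, in contrast, was low in WT (0.0703 ± 0.0631 CPM) and TKO (0.512 ± 0.241 CPM).

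*Apoa2*, a protein of high-density lipoprotein, rose from 0.0572 ± 0.0404 to 6.41 ± 0.765 CPM, and TKO held 5.43 ± 0.520 CPM. *Platr15*, a noncoding RNA, was at 0.107, 0.115, 0.467 and 0.150 CPM in LBRKO and 19.7, 27.8, 20.9 and 20.8 CPM in QKO, against 1.45 ± 0.231 in TKO and 0.188 ± 0.0689 in WT. *Akr1c18*, a progesterone-metabolising aldo-keto reductase, rose from 0.172 ± 0.117 to 7.94 ± 0.748 CPM and *Cyp2b23*, a cytochrome P450, from 0.723 ± 0.145 to 30.4 ± 1.64 CPM. These genes stood higher in QKO than in LBRKO and WT alike, by 5.39 to 6.74 against LBRKO. *Tmem132d*, a transmembrane protein, rose from 0.359 ± 0.114 to 16.5 ± 0.352 CPM, and *Trpc6*, a calcium channel, from 0.245 ± 0.0569 to 9.03 ± 0.727 CPM. *Dcdc2a*, a doublecortin family gene, rose by 6.42 ± 0.59, although the WT sets differed there too, with 2.87 against 0.442 CPM. They also differed in *Tmem132d*, with 0.182 against 0.968 CPM.

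Among the 10 genes with the largest fall by the same rule, *Lmnb2* and *Lmnb1* were joined by *Tdg-ps2*, a pseudogene of the DNA glycosylase gene *Tdg*, at 30.5, 26.7, 28.6 and 23.6 CPM in LBRKO and 0.227, 0.115, 0.275 and 0.103 CPM in QKO (-7.23 ± 0.19, adjusted p = 1.1e-29). TKO was as low, at 0.237 ± 0.0837 CPM. Only reads with a single position were counted, so reads that fit both the pseudogene and its parent are missing. *Fosl2*, an AP-1 transcription factor, was at 36.5, 34.8, 36.5 and 36.7 CPM in LBRKO and 1.20, 1.46, 0.864 and 0.995 CPM in QKO (-4.99 ± 0.24). LBRKO exceeded WT in *Fosl2* (9.27 ± 2.79 CPM) and in *Prph*, the neuronal intermediate filament peripherin, which fell from 24.3 ± 4.13 to 0.900 ± 0.278 CPM and was at 6.72 ± 1.92 CPM in WT. *Misp*, an actin-binding spindle orientation protein, fell from 18.5 ± 0.680 to 0.450 ± 0.193 CPM, *Crb3*, a tight junction polarity protein, from 22.4 ± 1.15 to 0.952 ± 0.219 CPM, and *Synj2*, a phosphoinositide phosphatase, from 21.4 ± 3.74 to 0.908 ± 0.179 CPM.

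On chromosome 6 the genes with the highest rise by that rule went against the direction of the chromosome as a whole. *Aass*, an enzyme of lysine breakdown, was at 0.618, 0.575, 0.340 and 0.626 CPM in LBRKO and 17.03, 15.8, 16.3 and 16.7 CPM in QKO (4.93 ± 0.28), against 3.30 ± 0.942 CPM in WT. *Nod1*, a sensor of bacterial peptidoglycan, was at 5.45, 4.64, 6.85 and 7.21 CPM in LBRKO and 54.8, 67.9, 60.8 and 57.5 CPM in QKO (3.32 ± 0.19), and TKO held 49.7 ± 3.93 CPM. *Ppm1k*, *Clec4a1* and *Pdk4* rose by 2.02, 1.96 and 1.85. The largest falls there, by the same rule, were of *Epha1*, an ephrin receptor, from 8.45 ± 0.305 to 0.152 ± 0.0607 CPM (-5.76 ± 0.34), and *Ccnd2*, the cell cycle protein cyclin D2, from 5.04 ± 0.625 to 0.185 ± 0.152 CPM (-4.78 ± 0.53). *Zfp467*, *Tlx2* and *Foxp1*, all transcription factor genes, fell by 4.21, 3.93 and 3.71. The WT sets differed in *Ccnd2*, with 0.839 against 3.96 CPM, and with that split subtracted it was at -2.56. In *Nod1*, *Epha1* and *Tlx2* the WT split was -1.06, -1.10 and -1.25.

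Genes of primitive endoderm, the lineage that makes the yolk sac and its basement membrane, were lower in QKO for part of the list. Of 34 genes tested, 12 were lower, 10 of them beyond the WT split, and 3 were higher, 1 of them beyond the split. The median was -0.55 against 0.02 over all genes. Among the transcription factors, *Gata4* was at 11.6, 10.8, 10.1 and 10.6 CPM in LBRKO and 1.59, 2.03, 1.57 and 2.23 CPM in QKO (-2.53 ± 0.15, adjusted p = 1.3e-17), with no overlap and WT between them at 5.53 ± 0.568 CPM. *Sox7* had only 2 reads over the 4 QKO libraries against 89 in LBRKO, a ratio of scaled counts of 0.0368 (95% exact interval 0.00439 to 0.137, for counting error only). *Sox17* fell by 1.55 ± 0.47 but not beyond the WT split. *Gata6* stood at 0.277, 0.368, 0.743 and 0.751 CPM in LBRKO and 0.325, 0.421, 0.353 and 0.309 CPM in QKO, and the groups overlapped (-0.60 ± 0.37, adjusted p = 0.2).

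Among receptors and adaptors of the lineage, *Dab2* was joined by *Lrp2*, the endocytic receptor megalin, which fell from 26.6 ± 6.01 to 12.2 ± 1.49 CPM (-1.13 ± 0.13, and -0.97 without LBRKO replicate 1, short of 2-fold). *Fgfr2*, the FGF receptor of extraembryonic lineages, was at 1.04, 1.03, 2.25 and 2.15 CPM in LBRKO and 0.552, 0.383, 0.314 and 0.549 CPM in QKO (-1.82 ± 0.25). Both groups were far below WT for *Fgfr2* (8.87 ± 1.15 CPM), and LBRKO replicates 3 and 4 were above 1 and 2. *Pdgfra*, a receptor used to mark primitive endoderm, differed by -0.39 ± 0.30 (adjusted p = 0.32), and *Aqp8*, a water channel, rose by 2.54 ± 0.55 from 0.0825 ± 0.0407 to 0.505 ± 0.116 CPM. In the matrix, *Col4a2*, the partner chain of *Col4a1*, fell by 1.75 ± 0.16, and *Lama1* and *Lamb1*, both chains of laminin-111, fell by 1.37 ± 0.13 and 1.40 ± 0.10. *Serpinh1*, the collagen chaperone HSP47, was at 138, 143, 133 and 139 CPM in LBRKO and 20.02, 20.2, 18.5 and 19.8 CPM in QKO (-2.82 ± 0.09). *Nid1*, the basement membrane linker nidogen, went the other way, from 419.6 ± 47.8 to 851 ± 16.6 CPM (1.02 ± 0.09), though not beyond the WT split and, at 0.99, not without LBRKO replicate 4. In bulk RNA, fewer cells of a type and less RNA per cell cannot be told apart.

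Keratins, the intermediate filaments of epithelia, were lower in QKO. Of 7 tested, 6 were lower, all 6 beyond the WT split and without overlap, and the seventh, *Krt14*, was at 0 CPM in both groups. *Krt8*, a simple epithelial keratin, was at 63.3, 67.7, 64.5 and 67.4 CPM in LBRKO and 23.2, 24.4, 21.6 and 22.7 CPM in QKO (-1.51 ± 0.10, adjusted p = 3.0e-16). *Krt18*, its partner, was at 6.50, 5.93, 7.58 and 8.19 CPM in LBRKO and 0.910, 1.19, 1.65 and 1.58 CPM in QKO (-2.41 ± 0.19). *Krt17* was at 6.82, 7.196, 6.73 and 7.11 CPM in LBRKO and 0.0975, 0.0766, 0.0785 and 0.137 CPM in QKO (-6.09 ± 0.33). LBRKO was above WT in *Krt8* (30.6 ± 4.31 CPM) but not in *Krt17* (9.69 ± 2.30 CPM). *Krt19* fell by 4.13 ± 0.24, *Krt42* by 3.59 ± 0.22 and *Krt7* by 3.69 ± 0.58, and TKO lay between the groups in *Krt19*, at 1.495 ± 0.392 CPM against 9.76 ± 1.29 and 0.563 ± 0.270 CPM.

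Of 17 trophectoderm genes, 7 were lower, among them 3 of these keratins, and 3 were higher. *Eomes*, a T-box factor of trophoblast and mesendoderm, fell from 11.4 ± 0.896 to 2.45 ± 0.323 CPM (-2.22 ± 0.12), and the homeobox genes *Rhox6* and *Rhox9* fell by 3.94 ± 0.32 and 3.55 ± 0.46. *Gata3*, a trophectoderm factor, rose from 0.553 ± 0.126 to 2.66 ± 0.340 CPM (2.27 ± 0.27) and was above WT as well (0.518 ± 0.0780 CPM). *Cdx2*, another such factor, was at 3.22, 2.25, 3.63 and 3.68 CPM in LBRKO and 0.747, 1.34, 1.22 and 1.41 CPM in QKO (-1.44 ± 0.67, adjusted p = 0.079). The WT sets themselves lay at 0.0410 ± 0.0303 and 2.01 ± 0.687 CPM, and with that split subtracted the sign of *Cdx2* turned.

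Naive pluripotency genes were high in both groups. *Nanog* was at 659, 665, 645 and 638 CPM in LBRKO and 829, 826, 812 and 808 CPM in QKO (0.33 ± 0.18, adjusted p = 0.14). *Esrrb* was at 868, 840.0, 958 and 841 CPM in LBRKO and 873, 866, 842 and 828 CPM in QKO (-0.04 ± 0.10, adjusted p = 0.78). *Nanog* lies on chromosome 6 and was higher in every QKO library without passing the thresholds, while *Esrrb* overlapped. The WT sets lay at 864 and 754 CPM of *Nanog*, a difference that enters its standard error. Of 16 naive genes, *Tbx3*, a T-box factor of the naive network, passed alone, at 183, 177, 189 and 174 CPM in LBRKO and 388, 394, 377 and 383 CPM in QKO (1.09 ± 0.18, adjusted p = 4.7e-06). *Zfp42*, also called Rex1, was at 442, 415, 266 and 271 CPM in LBRKO and 665, 626, 615 and 629.8 CPM in QKO (0.86 ± 0.15). LBRKO replicates 1 and 2 were nearer QKO than 3 and 4 for this gene, and without LBRKO replicate 1 the difference of 1.02 passed. Among core factors, *Pou5f1* differed by 0.00 ± 0.11 and *Sox2* by 0.49 ± 0.10. *Lin28a*, an RNA-binding protein that blocks let-7 maturation, fell from 285 ± 11.4 to 73.9 ± 3.70 CPM (-1.95 ± 0.15, adjusted p = 1.7e-14), the 1 call among 7 core genes. The WT sets lay at 127 and 225 CPM of *Lin28a*.

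Of 18 genes of the formative and primed epiblast, 2 were higher and 6 lower, against 9.72% and 8.29% of all genes, and 1 and 3 of these beyond the WT split. *Otx2*, a factor that drives exit from the naive state, was at 0.405, 0.644, 0.594 and 0.601 CPM in LBRKO and 9.59, 5.94, 9.15 and 8.13 CPM in QKO (3.87 ± 0.51, adjusted p = 2.7e-08). Its WT sets were at 15.1 ± 1.86 and 3.14 ± 0.409 CPM and TKO at 17.5 ± 0.286 CPM, so that LBRKO was again the low group. *Foxd3*, a forkhead repressor, rose by 1.75 ± 0.23, but not beyond the WT split. *Pou3f1*, the factor Oct6, fell from 2.34 ± 0.408 to 0.460 ± 0.265 CPM (-2.32 ± 0.25), *Etv4*, an ETS factor, from 136 ± 7.13 to 46.8 ± 2.56 CPM (-1.54 ± 0.09), and *Sox4* from 15.3 ± 1.28 to 3.74 ± 0.524 CPM (-2.04 ± 0.13).

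Within the Nodal pathway, 3 of 17 genes were higher and 2 of these, the *Lefty* genes, were so beyond the WT split. *Nodal*, the ligand, was at 63.1, 61.1, 67.8 and 55.3 CPM in LBRKO and 101, 106, 96.9 and 97.6 CPM in QKO (0.70 ± 0.07, adjusted p = 1.1e-10). QKO was above LBRKO in every library, short of 2-fold. The pathway's median was -0.10.

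WNT ligands and mesendoderm genes gave 13 lower and 1 higher of 24, but only 4 of the lower calls stood beyond the WT split, whose median for the list was -0.65. *T*, the mesoderm factor brachyury, was at 6.99, 7.33, 7.003 and 7.61 CPM in LBRKO and 0.455, 0.460, 0.707 and 0.755 CPM in QKO (-3.60 ± 0.65), and at 0.250 and 3.91 CPM in the WT sets. *Sp5*, a direct WNT target, was at 87.5, 85.0, 109 and 129 CPM in LBRKO and 18.3, 18.7, 14.6 and 21.2 CPM in QKO (-2.49 ± 0.42), and at 16.8 and 95.8 CPM in the WT sets. With the split subtracted, *T*, *Sp5*, *Lef1* and *Axin2* were at 0.35, 0.02, 0.19 and 0.31, all above 0. *Axin2*, a feedback inhibitor of WNT, was also short of 2-fold without LBRKO replicate 1, at -0.98 against -1.05 ± 0.23. The 4 that held were *Wnt6*, from 2.48 ± 0.324 to 0.344 ± 0.267 CPM (-2.86 ± 0.36), *Wnt3a* (-2.55 ± 0.44), the WNT feedback inhibitor *Nkd1*, from 6.90 ± 0.477 to 1.23 ± 0.138 CPM (-2.48 ± 0.19), and *Fgf17* (-1.86 ± 0.16).

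FGF receptors, listed together with targets and feedback inhibitors of ERK, showed a like pattern, with 8 lower and none higher of 19. Of the lower calls, 3 stood beyond the WT split. At an unadjusted p under 0.05 in edgeR, 3 genes were higher, and DESeq2 called 0 higher. *Egr1*, an immediate early factor, was at 196, 147, 1133 and 307 CPM in LBRKO and 28.5, 23.7, 20.3 and 14.2 CPM in QKO. *Dusp6*, a phosphatase of ERK, was at 27.1, 25.4, 64.5 and 45.5 CPM in LBRKO and 10.4, 9.92, 10.7 and 10.8 CPM in QKO. In both genes LBRKO replicate 3 was the highest library, and so was WT replicate 7 among WT, at 913 CPM of *Egr1* and 59.8 CPM of *Dusp6*. *Spry1*, a feedback inhibitor of receptor tyrosine kinases, fell from 13.3 ± 2.71 to 4.74 ± 0.733 CPM (-1.49 ± 0.15) and did so beyond the split, as *Etv4* and *Fgfr2* did. Of 14 stress and immediate early genes, 7 were lower, and the 2 beyond the split were *Atf3* (-1.49 ± 0.19) and *Ier3* (-1.501 ± 0.17).

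Genes of cholesterol synthesis and sterol control had mostly negative differences. Of 25, 24 had a negative difference, 6 were lower by more than 2-fold and 4 of these were so beyond the WT split, with a list median of -0.82 against 0.02 over all genes. For comparison, 11349 of all 23399 genes had a negative difference. So did 9125 of 15477 protein-coding genes, whose median was -0.10. Summed over the list, QKO libraries held 2729 to 2897 CPM, LBRKO 4315 to 4531 CPM and WT 3968 to 4277 CPM. *Insig1*, which holds the sterol sensor in the endoplasmic reticulum, was at 266, 258, 271 and 280.3 CPM in LBRKO and 104, 116, 105 and 109.9 CPM in QKO (-1.31 ± 0.09, adjusted p = 1.5e-16). *Tm7sf2*, the reductase that shares the activity of LBR, was at 44.6, 44.6, 43.0 and 46.2 CPM in LBRKO and 16.7, 20.8, 16.1 and 16.3 CPM in QKO (-1.35 ± 0.14). Groups did not overlap for either gene, and WT held 34.98 ± 4.30 CPM of *Tm7sf2*. *Lss*, lanosterol synthase, fell by 1.14 ± 0.12 and *Dhcr7*, the last enzyme of the pathway, by 1.09 ± 0.08, the latter not beyond the split.

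Since these genes share control by the factor SREBP2, the 250 bases before each start site were searched on both strands for the sterol response element TCACNCCAC. Of 25 promoters of the list, 1 held it (4%), against 1.12% of 15477 promoters of protein-coding genes. That promoter, of *Hmgcs1*, lies at chr13:120151732-120151981 on the plus strand of GRCm39. Capitals mark the match.
Hmgcs1 promoter: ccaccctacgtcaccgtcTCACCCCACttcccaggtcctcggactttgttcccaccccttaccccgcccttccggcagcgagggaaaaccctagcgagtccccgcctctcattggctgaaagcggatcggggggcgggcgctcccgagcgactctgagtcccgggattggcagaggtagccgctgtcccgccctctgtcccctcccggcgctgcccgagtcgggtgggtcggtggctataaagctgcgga
The match in *Hmgcs1*, which encodes HMG-CoA synthase, begins 232 bases before the start site, and the gene went from 471 ± 17.9 to 266 ± 3.20 CPM (-0.82 ± 0.12). No match says only that these letters are absent from this window.

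Antiviral and innate sensing genes were called in both directions, 2 higher and 9 lower of 35, with 2 and 7 beyond the WT split. *Bst2*, the virion-tethering protein tetherin, was at 38.3, 43.4, 47.2 and 50.5 CPM in LBRKO and 9.94, 8.47, 8.64 and 8.17 CPM in QKO (-2.35 ± 0.18, adjusted p = 1.7e-14). *Zbp1*, a sensor of Z-form nucleic acid, fell from 1.17 ± 0.140 to 0.110 ± 0.0964 CPM and *Irf1*, an interferon regulatory factor, from 22.5 ± 3.06 to 10.2 ± 0.451 CPM. *Ifih1*, a sensor of double-stranded RNA, fell too, from a level of only 0.228 CPM. The higher pair were sensors of bacteria, *Nod1* and *Tlr2*, and *Tlr2* was at 1.92, 1.59, 2.04 and 2.08 CPM in LBRKO and 17.4, 12.8, 19.09 and 16.3 CPM in QKO (3.10 ± 0.25).

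Of 32 imprinted genes, 5 were lower and 1 higher. *Peg10*, *Sgce* and *Mest* all lie on chromosome 6. *Peg10*, a retrotransposon-derived gene, was at 174, 154, 365 and 409 CPM in LBRKO and 33.5, 34.9, 35.5 and 31.2 CPM in QKO (-3.03 ± 0.32). *Sgce*, its neighbour, was at 4.43, 3.98, 7.45 and 11.0 CPM in LBRKO and 1.14, 1.76, 1.26 and 1.10 CPM in QKO (-2.35 ± 0.25). LBRKO replicates 3 and 4 were above replicates 1 and 2 in both. *Mest*, a hydrolase, fell from 224 ± 8.63 to 50.5 ± 1.90 CPM (-2.15 ± 0.16) with close LBRKO libraries. *Slc22a18*, a transporter on chromosome 7, fell by 2.46 ± 0.31, while *Slc38a4*, an amino acid transporter, rose from 2.69 ± 0.326 to 25.0 ± 2.32 CPM (3.21 ± 0.13) and was at 141 ± 6.28 CPM in TKO.

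Other lists gave calls on both sides. Of 16 neural progenitor genes, 3 were higher and 5 lower. *Sox11* was at 27.2, 23.5, 22.2 and 23.5 CPM in LBRKO and 0.942, 0.996, 0.982 and 1.34 CPM in QKO (-4.49 ± 0.18), and *Msi1*, an RNA-binding protein, fell from 133 ± 4.49 to 43.2 ± 0.567 CPM (-1.63 ± 0.10). *Nes*, the intermediate filament nestin, rose by 1.80 ± 0.18, not beyond the WT split. Of 31 germline genes, 5 were higher and 7 lower, against 9.72% and 8.29% of all genes. The higher ones included *Sycp1*, of the synaptonemal complex, from 2.54 ± 0.785 to 6.92 ± 0.990 CPM, and the lower ones *Tdrd5*, of the piRNA pathway, from 1.72 ± 0.354 to 0.236 ± 0.210 CPM. Of 24 targets of YAP and cytoskeletal tension, *Tagln2*, an actin-binding protein, fell from 305 ± 8.57 to 86.8 ± 2.59 CPM (-1.81 ± 0.08) and *Cnn2*, a calponin, by 1.75 ± 0.17, the latter not beyond the split. Of 61 KRAB zinc finger genes with names from Zfp900 to Zfp999, 11 were higher, 7 of them beyond the split, and 1 was lower. *Zfp934* rose most, by 2.29 ± 0.13, and *Zfp981* by 1.96 ± 0.11. These genes belong to a family with members near-identical in part, so reads that fit several of them were not counted.

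Several lists of chromatin and stress genes held no call in either direction, by edgeR or by DESeq2. Among 29 nuclear envelope genes other than the targets, 4 were higher and 7 lower in edgeR with an unadjusted p under 0.05 but short of 2-fold. At an unadjusted p under 0.05, whatever the fold, 5246 of all 23399 genes were higher and 6115 lower. Among the 15477 protein-coding genes, 3131 were higher and 5622 lower. These shares are the background for the counts in this paragraph. Among 32 genes of H3K9 methylation and heterochromatin, 8 were higher and 12 lower at that level, and the differences ran from -0.94 to 0.70 on the log2 scale. The counts were 5 higher and 9 lower among 22 p53 targets, and 5 higher and 6 lower among 16 DNA methylation genes, all short of 2-fold but *Dnmt3c*, at 0 CPM in LBRKO and 0.0349 CPM in QKO (adjusted p = 0.078). They were 3 higher and 2 lower among 26 clustered protocadherins, and 1 higher and 0 lower among 3 *Phf11* genes. The protocadherins share exons, so a read may not tell them apart. *Dnmt3l*, a cofactor of the DNA methyltransferases, was at 178, 168, 164 and 174 CPM in LBRKO and 110.4, 123, 109 and 107 CPM in QKO (-0.60 ± 0.12), both far above WT at 23.2 ± 4.85 CPM. The 15 genes of the 2-cell-like state summed to only 0.515 to 0.715 CPM per QKO library and 0.276 to 0.451 CPM per LBRKO library, too low for a statement.

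Markers of other cell types were low in both groups. The 8 fibroblast markers tested summed to 3.16 to 4.56 CPM in QKO and 10.02 to 11.0 CPM in LBRKO, with 3 lower and none higher in edgeR (1 was higher at an unadjusted p under 0.05, and DESeq2 called 0 higher). *Col1a2*, on chromosome 6, fell from 2.23 ± 0.749 to 0.171 ± 0.128 CPM, and *Thy1* differed by 0.74. The WT sets lay at 0.201 and 0.881 CPM of *Col1a2*. The 6 blood and immune markers summed to 18.7 to 21.5 CPM in QKO and 21.6 to 23.8 CPM in LBRKO, and *Ptprc*, which marks all white blood cells, was at 0 in LBRKO. The part of these cells in the results was not tested.

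**Figure D4:**
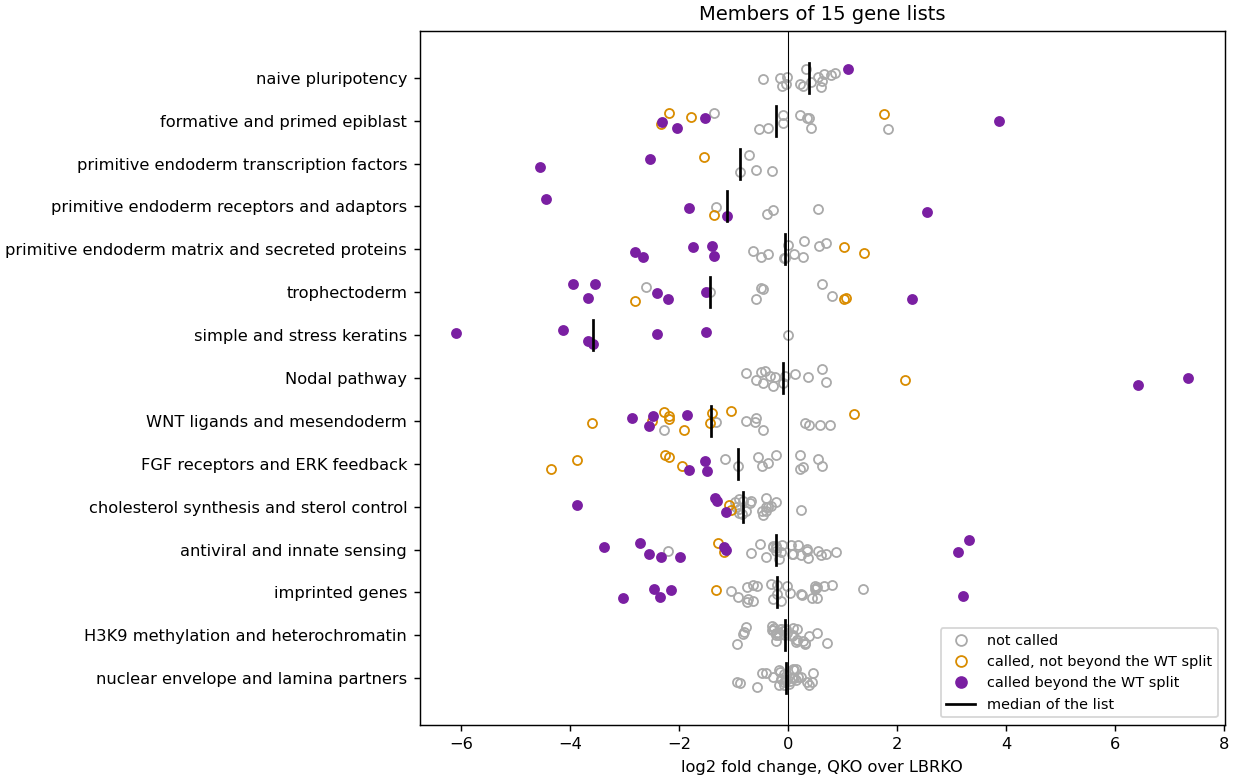
Difference between QKO and LBRKO (horizontal axis, log2) of each tested member of 15 gene lists (rows), with called members beyond the WT split, other called members and members that were not called in different colours, and the median of each list as a black line. 6 of 7 keratins lie left of -1 and 24 of 25 cholesterol genes lie left of 0. Of all 15477 protein-coding genes tested, 9125 had a difference below 0.

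TE families were mostly higher in QKO. Of 1142 families, 143 were higher (12.5%) and 1 was lower (0.0876%), and 89 of the higher calls (7.79% of all families) stood beyond the WT split. With the split subtracted 291 families were higher, and with it added 112 were higher and 7 lower. Groups did not overlap for 544 families (47.6%). The median over all families was 0.50 on the log2 scale, against -0.29 for the WT split. Between the WT sets, 8 families were lower in replicates 1 to 4 (0.701%) and none higher, with 231 lower and 13 higher at an unadjusted p under 0.05 in edgeR. Without WT replicate 3 or 4 the count of lower families was 0, without 1 it was 4, and without 5 or 7 it was 2. LTR elements, the relics of retroviruses, made up 115 of the 143 (76 beyond the split, of 603 tested), and LINEs, which copy themselves by their own reverse transcriptase, made up 17 (10 beyond, of 189). DNA transposons gave 5 of 273 and SINEs 2 of 34. Sequences of the families are not shown, since no consensus was among the sources used here.

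Among families ranked in that way with at least 1 CPM, the highest rises were of internal parts of retroviruses. *MMERGLN-int*, a gammaretrovirus-like family, was at 2.87, 2.07, 3.06 and 3.59 CPM in LBRKO and 97.5, 104, 102 and 103 CPM in QKO (5.13 ± 0.28, adjusted p = 2.7e-18). *RLTR45-int*, of the ERVK class, was at 34.6, 37.2, 29.8 and 29.1 CPM in LBRKO and 1043, 1097, 1130.4 and 1103 CPM in QKO (5.06 ± 0.17, adjusted p = 3.5e-25). *ERVB4_2-I_MM*, of the same class, was at 5.92, 8.41, 5.47 and 6.68 CPM in LBRKO and 164, 187, 191 and 164 CPM in QKO (4.74 ± 0.15). Families of the kind differed in where TKO stood: TKO held 85.1 ± 2.94 CPM of *MMERGLN-int*, close to QKO, but 158 ± 7.42 CPM of *RLTR45-int* and 29.0 ± 2.66 CPM of *ERVB4_2-I_MM*. *ERVB4_3-I_MM* rose by 4.08 ± 0.31, and of 11 families of the ERVB4 and RLTR45 names 9 were higher, 8 beyond the split.

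Of the families listed as young LINE-1, 7 of 9 rose, all 7 beyond the WT split, with a median of 1.53 against 0.50 over all families. *L1MdA_I* was at 169.7, 215, 174 and 292 CPM in LBRKO and 2762, 2479, 2398 and 2523 CPM in QKO (3.58 ± 0.19, adjusted p = 2.7e-18). *L1MdGf_I* was at 59.1, 58.1, 74.4 and 64.4 CPM in LBRKO and 436, 384, 405 and 403 CPM in QKO (2.67 ± 0.17). *L1MdTf_I* was at 353, 350.0, 351 and 277 CPM in LBRKO and 1155, 1024, 984 and 1014 CPM in QKO (1.65 ± 0.15). All QKO libraries lay above all LBRKO libraries in the 3 families. *L1MdA_II* rose by 2.67 ± 0.17 and *L1MdA_III* by 1.35 ± 0.16, while *L1MdTf_III* differed by 0.39. Older rodent LINE-1 of the Lx group gave 1 call in 21.

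IAP families, endogenous retroviruses that are held silent by H3K9 methylation and DNA methylation, gave 17 higher and 1 lower of 25, 12 of the higher beyond the WT split. The most abundant internal part, *IAPEz-int*, was at 430.2, 399, 492 and 488 CPM in LBRKO and 481, 528, 565 and 509.9 CPM in QKO, and the groups overlapped (0.20 ± 0.09, adjusted p = 0.057). *IAP1-MM_I* rose from 3.48 ± 0.680 to 15.1 ± 0.964 CPM (2.11 ± 0.15) and *IAPEy-int* from 27.5 ± 3.36 to 79.2 ± 4.40 CPM (1.53 ± 0.15). The single lower family was *IAPA_MM-int*, at 0.703 and 0.207 CPM (-1.77 ± 0.63), which was lost without QKO replicate 1 (-1.55, adjusted p = 0.056) or 3 (-1.74, adjusted p = 0.055). *MERVL-int*, which marks the 2-cell-like state, was at 67.4 ± 8.36 and 111 ± 18.2 CPM (0.72 ± 0.19) and was not called. In the ETn and MusD group, *ETnERV2-int* rose by 2.31 ± 0.17, and *MMETn-int* differed by 0.40. Among satellites, *MMSAT4* rose by 1.38 ± 0.14, and the major satellite *GSAT_MM* differed by 0.07 ± 0.23 at 3.21 and 3.36 CPM in libraries without selection for polyadenylated RNA.

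TEs together took 12.6 ± 1.00% of all counts in QKO and 8.67 ± 0.907% in LBRKO (SD, n = 4 each), a difference of 3.97 percentage points. The 4 QKO libraries, from 11.3 to 13.8%, lay above the LBRKO libraries, from 7.71 to 9.88%, and WT ranged from 6.73 to 9.87%. By a two-sided exact permutation test the p was 0.0286, the smallest that 4 against 4 libraries can give, and 0.0333 after adjustment over 7 shares. LINEs took 2.36 ± 0.214% against 1.28 ± 0.123%, SINEs 5.25 ± 0.442% against 3.71 ± 0.372% and LTR elements 3.29 ± 0.270% against 1.98 ± 0.144%. DNA transposons took 1.45 ± 0.147% against 1.52 ± 0.306% (exact p = 0.743). Mitochondrial RNA took 1.14 ± 0.185% of gene counts in QKO and 0.787 ± 0.123% in LBRKO. Reads within introns and long transcripts enter the TE counts as well, and the part of such transcription in these shares was not tested.

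**Figure D5:**
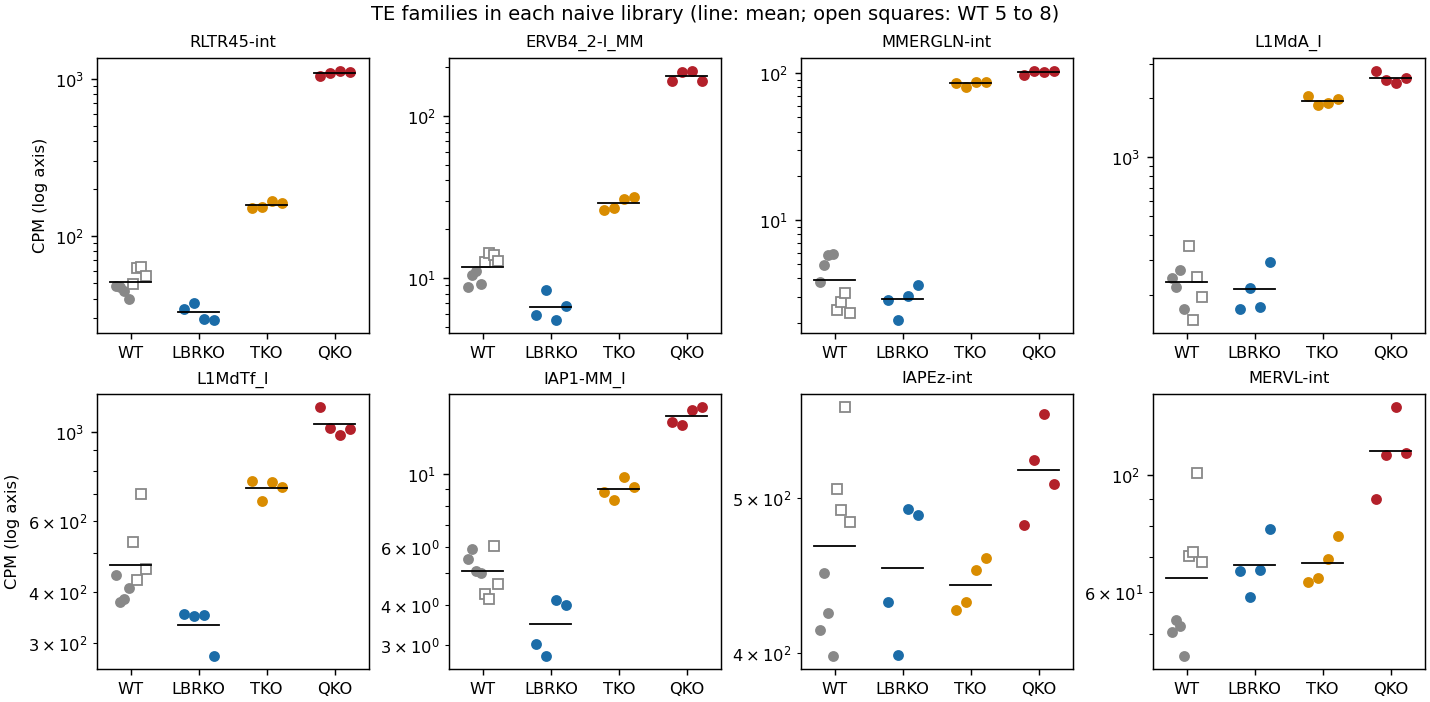
Level of 8 TE families in each naive library (vertical axis, CPM on a log scale) for WT, LBRKO, TKO and QKO, with each point a library, open squares for WT replicates 5 to 8 and a line for the mean of each group. RLTR45-int and L1MdA_I lie higher in all 4 QKO libraries than in any LBRKO library, while IAPEz-int overlaps.

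The difference between QKO and LBRKO was then set beside the difference between TKO and WT, which is lamin loss in cells that keep LBR. They share no library, but QKO came from the TKO line and LBRKO from the WT line. Both differences therefore also hold that between the parental lines, and an overlap cannot tell it from lamin loss. TKO against WT called 628 genes higher (2.68%) and 881 lower (3.77%). Of these, 478 were also higher in QKO than LBRKO, which is 76.1% of the TKO list and 21.02% of the QKO list, and 560 were also lower, 63.6% and 28.9%. The directions were opposed for 27 of the genes higher in QKO and 2 of the lower ones. For TE families, 20 of the 22 higher in TKO (1.93% of all families) were higher in QKO as well, which is 14.0% of the 143.

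A test of the difference between these differences called 959 genes in the positive direction (4.1%) and 796 in the negative direction (3.4%), and 777 and 698 of these were among the genes called higher or lower in QKO than LBRKO. *Lefty2* and *Lefty1* were among them, with values of 7.14 (adjusted p = 3.0e-16) and 6.57, as TKO differed from WT taken as 1 group by 0.20 and -0.14. The WT split was 1.24 and 1.66 in these genes, and TKO lay between the WT sets. *Gata4*, *Dab2*, *Col4a1* and *Serpinh1* were at -1.88, -2.75, -2.14 and -1.83, and *Krt8* and *Krt18* at -1.36 and -1.94. Each of these differences was more negative between LBRKO and QKO than between WT and TKO. *Eomes* was at -2.19, with 6.58 ± 0.774 CPM in TKO and 6.70 ± 0.431 CPM in WT. *Apoa2* and *Tdg-ps2*, at 0.11 and -0.42, did not pass (adjusted p = 0.97 and 0.58).

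Among TE families 28 passed in the positive direction (2.45%), and 27 of these were called higher in QKO than LBRKO. None passed in the negative direction in edgeR, and 1 was negative at an unadjusted p under 0.05. *RLTR45-int* was at 3.44 (adjusted p = 1.0e-16), *ERVB4_2-I_MM* at 3.42, *L1MdGf_I* at 1.13 and *L1MdTf_I* at 1.01. *L1MdA_I* was at 0.51 (adjusted p = 0.27) and *MMERGLN-int* at 0.65 (adjusted p = 0.34), which do not pass, and both families were already high in TKO. WT sets of unlike depth enter this test as 1 group.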

How the data were processed

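Total RNA-seq of 40 libraries was used as 2 deposited tables of raw counts, one of counts per gene and one of counts per gene and TE family. Per the labels and methods, the authors trimmed reads with cutadapt 2.5, aligned them to GRCm39 with STAR 2.7.10a and counted genes of GENCODE M30 with featureCounts 1.6.4, keeping reads with a single position. For the second table, reads with up to 100 positions were kept and assigned with TEcount, so that families share reads. The strand setting is not given in the sources used here. Gene positions are those given with the deposited gene counts. Gene symbols and types are those of GENCODE M39, also on GRCm39, which held 56017 of the 56748 identifiers. Start sites of promoters and the place of the *Lbr* exon are from GENCODE M39 too. Promoter sequences and the *Lbr* exon were read from the GRCm39 reference.

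Samples were grouped by the labels' genotype and stage. Counts were fitted for all 40 libraries in 1 model (edgeR 4.0.16 quasi-likelihood test in R 4.3.3, TMM scaling, filterByExpr on 8 groups), and p-values were adjusted by Benjamini-Hochberg over all genes or all TE families tested. A call needed an adjusted p under 0.05 and more than 2-fold. The standard error is that of the fitted log2 difference. The WT split came from a fit with WT as separate sets at each stage (10 groups). DESeq2 1.42.0, other scalings, counts thinned to a common depth, no filter, fewer libraries, a replicate block and each library left out were tried. Shares of counts were compared by exact permutation (scipy 1.17.1). The edgeR fit was checked on simulated counts with known changes.

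Members, gene lists and TE lists were chosen with earlier results of these data known. Genes are named if targeted, if members of a list, if they are *Dab2* or *Col4a1*, or if among the 10 highest and 10 lowest differences off chromosomes 6, 8 and Y. The latter had to pass beyond the WT split, show no overlap, average at least 5 CPM in whichever group was higher and carry a gene symbol. The same rule took 5 genes each way on chromosome 6 and 5 TE families each way at 1 CPM, of which none was lower. Some genes that this rule names are not reported here. Intervals cover counting error only. Epiblast-like cells entered the model alone, for its estimate of spread.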

Additional observations from a re-analysis of the deposited data

Results flagged for a closer look

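For the genes and families here, the difference between QKO and LBRKO differed from that between TKO and WT by the test of the interaction, adjusted over all genes or families, and the values are that second difference on the log2 scale. In primitive endoderm, *Gata4*, *Sox7*, *Dab2*, *Col4a1*, *Col4a2*, *Lama1*, *Serpinh1* and *Aqp8* were at -1.88, -5.05, -2.75, -2.14, -1.32, -1.05, -1.83 and 2.36. The keratins *Krt7*, *Krt8*, *Krt17*, *Krt18*, *Krt19* and *Krt42* were at -1.96, -1.36, -4.26, -1.94, -1.68 and -1.63. The trophectoderm genes *Eomes*, *Gata3* and *Rhox6* were at -2.19, 1.79 and -1.31. The *Lefty* genes *Lefty1* and *Lefty2* were at 6.57 and 7.14, and the epiblast and pluripotency genes *Otx2*, *Foxd3*, *Pou3f1*, *Lin28a* and *Sox4* at 2.89, 1.28, -1.78, -1.47 and -1.29. Among WNT, ERK and early response genes, *Wnt3a*, *Wnt6*, *Nkd1*, *Cited1*, *Spry1*, *Atf3* and *Ier3* were at -1.55, -1.69, -1.68, -1.09, -1.17, -1.07 and -1.07. Among other list members, *Bst2*, *Zbp1*, *Tlr2*, *Nod1*, *Dnmt3l*, *Tdrd5*, *Nes*, *Sox11* and *Msi1* were at -1.25, -2.58, 1.15, -1.02, -1.92, -1.84, 1.41, -1.07 and -1.18. The imprinted genes *Peg10*, *Mest*, *Slc22a18* and *Slc38a4* were at -1.13, -1.55, -1.37 and -1.08, the actin-linked *Tagln2* and *Cnn2* at -1.13 and -1.32, the fibroblast marker *Col1a2* at -2.44 and the zinc finger genes *Zfp934* and *Zfp981* at 1.31 and 1.28. Of the Y-linked genes, *Kdm5d*, *Zfy1* and *Zfy2* were at 4.29, 4.63 and 4.79. Of the genes with the largest rises, *Stk33*, *Platr15*, *Dcdc2a*, *Tmem132d*, *Akr1c18*, *Cyp2b23* and *Trpc6* were at 4.59, 3.80, 3.80, 4.60, 2.09, 3.62 and 3.52. Of those with the largest falls, *Misp*, *Fosl2*, *Prph*, *Synj2* and *Crb3* were at -3.52, -3.05, -3.41, -2.64 and -3.37. On chromosome 6, *Aass*, *Ppm1k*, *Epha1*, *Zfp467*, *Tlx2* and *Foxp1* were at 4.95, 1.77, -2.99, -3.42, -1.68 and -1.82. Of TE families, *RLTR45-int*, *RLTR45*, *ERVB4_2-I_MM*, *ERVB4_2-LTR_MM* and *ERVB4_3-I_MM* were at 3.44, 1.66, 3.42, 2.10 and 2.14, and *ETnERV2-int*, *IAP1-MM_I*, *L1MdGf_I* and *L1MdTf_I* at 1.44, 1.28, 1.13 and 1.01.

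In 21 of 302 groups of 4 libraries examined, 1 library lay farther from the other 3 than Dixon's 95% critical value, which by its definition chance passes in about 1 group in 20, and the values are in CPM. QKO replicate 2 stood apart in *Platr15*, *Cnn2*, *Fos* and *Tm7sf2*, at 27.8, 16.4, 6.97 and 20.8. QKO replicate 3 stood apart in *Lmnb2*, at 3.77. QKO replicate 4 stood apart in *Tdrd5*, *Pou3f1* and *Sox11*, at 0.549, 0.858 and 1.34. LBRKO replicate 1 stood apart in *Rhox6*, at 3.64. LBRKO replicate 2 stood apart in *Fosl2*, *Sox4*, *ERVB4_2-LTR_MM* and *L1MdTf_II*, at 34.8, 13.4, 14.9 and 546. LBRKO replicate 3 stood apart in *Platr15*, *Wnt6*, *Sox2* and *Egr1*, at 0.467, 1.99, 249.5 and 1133. LBRKO replicate 4 stood apart in *Lmnb1*, *Zfp467*, *Zfp981* and *L1MdTf_I*, at 499, 16.0, 27.0 and 277.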

How the results depend on the processing

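For 151 named genes and TE families, 3338 values were computed under other settings: 3273 kept their direction and their side of the threshold, 30 lost a call, 11 gained one and 24 changed sign. Genes called higher and lower (2274 and 1939) were 2360 and 1917 by DESeq2, 1977 and 1585 from the 8 libraries alone, and 2197 to 2635 and 1790 to 1882 with a library left out. With WT fitted as 2 groups by replicate number, 2348 genes were called higher and 1972 lower. TE families called higher numbered 291 with the WT split subtracted, and families called lower numbered 0 with it subtracted, 7 with it added, 4 with no filter, 0 without LBRKO replicates 1 and 2 or 3 and 4, and 0 to 1 with a library left out. The WT split gave 0 to 1 higher and 0 to 9 lower families with a library left out. The share of counts on TEs differed by 3.59 to 4.41 points with a library left out, each at an exact p of 0.0571, the smallest that 3 against 4 can give. With the split subtracted, signs turned for *Sp5* (0.019), *Lef1* (0.19), *Klf4* (0.076), *Pdgfra* (0.49), *Cdx2* (4.08), *Axin2* (0.31), *Esrrb* (0.037) and *T* (0.35), and with it added for *Pou5f1* (-0.23), *Gata6* (0.044), GSAT_MM (-0.0048) and IAPEz-int (-0.081). They also turned for *Pou5f1* with no filter (-0.075) and without LBRKO replicates 1 and 2 (-0.023), for *Esrrb* without QKO replicate 4 (0.0031) or LBRKO replicate 3 (0.029, against a lowest of -0.028 with another library left out), for GSAT_MM without QKO replicate 4 (-0.067) or LBRKO replicate 3 (-0.020), against a highest of 0.15, and for *Lbr* (-0.16) and *Gata6* (0.12) without LBRKO replicates 3 and 4. With the chromosome median subtracted they turned for *Esrrb* (0.0053), *Eif2s3y* (-0.95), *Uty* (-1.003) and *Ddx3y* (-0.18). The causes were not tested. Replicate numbers are shared by label only: same-numbered QKO and LBRKO libraries had correlated deviations of -0.35, -0.42, 0.11 and 0.18, and the replicate block on the 8 libraries called 1922 and 1563 genes and 152 and 1 TE families, against 1977 and 1585 genes and 154 and 1 families without it. Depth limits genes under about 1 CPM, and 4 wells of 1 QKO clone limit what the groups stand for.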
